A study of Homo sapiens with 6 samples.

Results

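Cytosolic ribosomal protein mRNAs were examined in MDA-MB-231 cells, a human triple-negative breast cancer (TNBC) line, after depletion of the RNA-binding protein Sam68. The genes were chosen by symbol (RPL or RPS, a number and at most 1 letter A, X or L, for RPL symbols also 1 further digit, together with RPSA, RPLP0, RPLP1 and RPLP2), which gave 84 of the 74852 loci measured. They comprise 43 proteins of the large subunit (60S), 31 of the small subunit (40S), 3 stalk proteins and 7 paralogs of these genes. RPS6K kinases, pseudogenes and paralogs with other symbols, such as RPL36AL, are not among them. However, 2 loci (RPL13A and RPL21) also carry a pseudogene symbol. A further 3 (RPL17, RPL36A and RPS10) are joined with another protein-coding gene, so that their reads cannot be told apart. Cells received 2 rounds of lipid transfection with either a non-targeting control siRNA (si-CTRL, 3 libraries) or siRNA against SAM68 (si-SAM68, 3 libraries), and per the labels they were harvested 24 h after the second round. The labels name high-glucose DMEM with serum for all libraries, while the methods of the paper name another medium, extraction kit and time of harvest. The methods speak of a harvest in triplicate but not of separate cultures, so p-values measure the spread between these samples, which may be technical in part. Sequencing was of poly(A) RNA, with 52625492 to 82568487 reads assigned to loci per library.

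Ribosomal proteins assemble with ribosomal RNA in the nucleolus into the large subunit, which forms peptide bonds and carries the exit tunnel, and the small subunit, which reads the mRNA. Their mRNAs are among the most abundant in dividing cells and typically begin with a 5′ terminal oligopyrimidine (TOP) tract, through which the kinase complex mTORC1 and the protein LARP1 adjust their translation and stability together. Several of these genes have a paralog that replaces or resembles the parent protein in particular tissues or in ribosome assembly, and some free ribosomal proteins bind the ubiquitin ligase MDM2.

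Start sites are shown because TOP mRNAs are defined by their first bases, and because several paralogs are set against their parents below. In the RefSeq promoter windows (GRCh38.p14), 67 of the 84 members were matched, and 47 of them (70.1%) had a window whose annotated first transcribed base was a C followed by at least 4 further C or T bases on the transcribed strand. Of all 27305 genes with windows, 5.14% had one. The tract was found for 46 of 62 matched subunit and stalk genes and for 1 of 5 matched paralogs, RPL22L1. The windows below run from 15 bases before the annotated start to the 15th base of the transcript, with the tract in capitals, for RPL34, RPL31 and RPS12, which varied most between control libraries, and for parents and paralogs.
RPL34: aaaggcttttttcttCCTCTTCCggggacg
RPL31: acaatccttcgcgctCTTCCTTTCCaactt
RPS12: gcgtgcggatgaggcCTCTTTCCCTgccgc
RPL39: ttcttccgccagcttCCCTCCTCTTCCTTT
RPS27: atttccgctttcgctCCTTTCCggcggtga
RPS27L: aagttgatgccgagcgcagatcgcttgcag
RPL22: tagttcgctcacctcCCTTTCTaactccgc
RPL22L1: cgcggccgtagcttcCTCTCTgctctcgcg
RPL26: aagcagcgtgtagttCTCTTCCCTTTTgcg
RPL26L1: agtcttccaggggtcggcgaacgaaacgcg
RPL7L1: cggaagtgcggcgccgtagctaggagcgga

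These windows lie at chr4:108620561-108620590 on the plus strand (RPL34, the first of its 2 windows), chr2:101002274-101002303 plus (RPL31), chr6:132814554-132814583 plus (RPS12), chrX:119791616-119791645 minus (RPL39), chr1:153990747-153990776 plus (RPS27), chr15:63157463-63157492 minus (RPS27L), chr1:6199581-6199610 minus (RPL22), chr3:170870181-170870210 minus (RPL22L1), chr17:8383179-8383208 minus (RPL26), chr5:172958714-172958743 plus (RPL26L1, the first of its 2 windows) and chr6:42879601-42879630 plus (RPL7L1), all in GRCh38.p14.

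The targeted gene was measured first. KHDRBS1, which encodes Sam68, had normalized read counts of 15660, 14483 and 14737 in si-CTRL and 583, 602 and 670 in si-SAM68 (each in the order of replicates 1 to 3). The groups were far apart, and 4.13% of the control mean was left (log2 fold change −4.60 ± 0.08 (SE), limma adjusted p = 2.13e-09). An exact permutation test over 3 against 3 libraries (two-sided) cannot give less than p = 0.1, which is the value it gave. Of the markers of this line, VIM (138300 to 173162), CD44, EGFR, AXL and ZEB1 were present in every library. PGR was listed at 0 in every library, and ESR1, CDH1, EPCAM, the leukocyte gene PTPRC, the endothelial gene PECAM1 and the hepatocyte gene ALB were at or below 16.2 in each.

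The library si-CTRL replicate 1 stood apart for the ribosomal protein mRNAs, which bears on the results that follow. Of the 82 members that reached a mean of 10 normalized reads and were tested, 62 had their lowest value in this library, whereas 5341 of all 18849 tested loci (28.3%) did. The members' median difference from their own mean over the 6 libraries was −0.26 (log2) in si-CTRL replicate 1, against 0.04 and 0.01 in the other 2 controls and 0.13, −0.00 and 0.09 in the si-SAM68 libraries. The genes differed widely in this respect. RPL34, a protein of the large subunit, stood in si-CTRL replicate 1 at 41.8% of the mean of the other 2 control libraries, while RPL11, also of the large subunit, stood at 125.0%. The other 2 control libraries were close to each other, with a median log2 ratio of 0.02 across the members and an SD of 0.09.

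**Figure D1:**
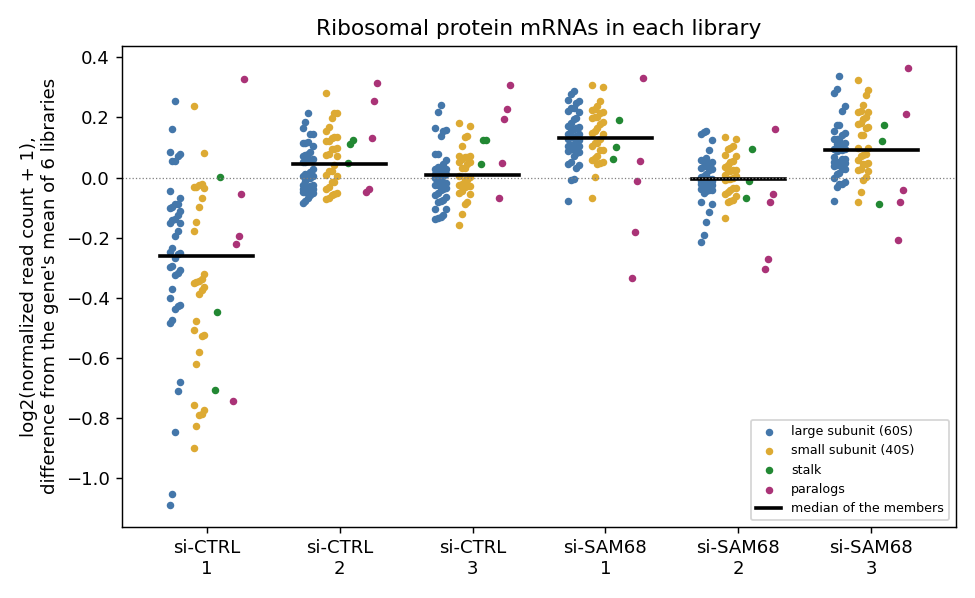
Each point is a tested ribosomal protein gene; the vertical axis gives its log2(normalized read count + 1) minus the gene's mean over the 6 libraries, and the black bars are medians over the 82 genes. The median is −0.26 in si-CTRL replicate 1, where single genes reach −1.09, and the remaining 5 medians run from −0.00 to 0.13.

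Coding length went along with this pattern in part. In si-CTRL replicate 1, the 11 members with coding regions of up to 300 bases had a median difference of −0.51, the 48 members above 300 and up to 600 bases −0.25, and the 20 members above 600 and up to 900 bases −0.21. Among the other tested loci the same 3 length classes had medians of −0.20 (239 loci), −0.12 (1287 loci) and −0.02 (1671 loci) in this library. Short coding regions were thus low in si-CTRL replicate 1 outside the ribosomal protein genes too, by less than in the members of the same class. Across the 82 members the Spearman correlation of coding length with the level in this library relative to the other controls was 0.24, and that of the mean level with the same ratio was 0.26, both a description across genes that are not independent replicates. With a coding length trend removed from each library (chosen after seeing the data), the members' median log2 fold change was 0.10 with 63 positive values, and with a length and GC trend removed 0.13 with 65, against 0.15 with 71 as measured.

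**Figure D2:**
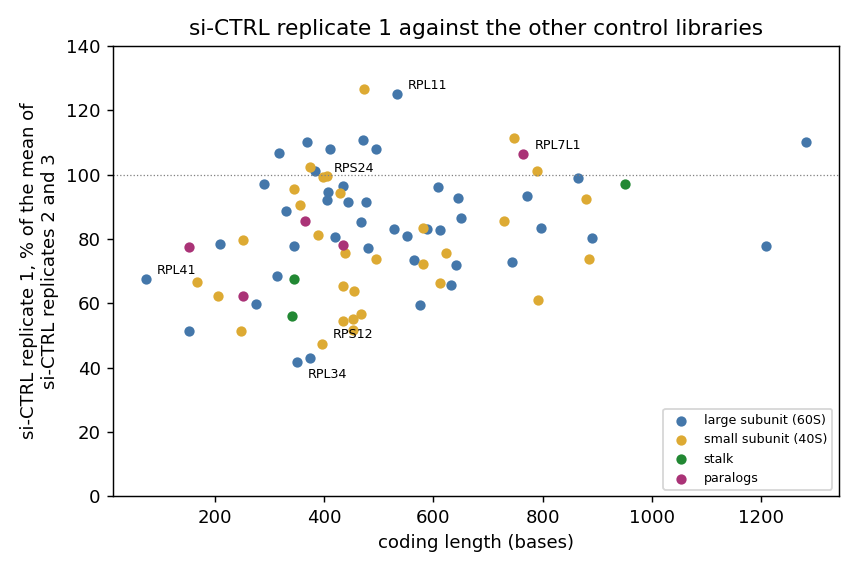
The level of each tested ribosomal protein gene in si-CTRL replicate 1, as a percent of the mean of si-CTRL replicates 2 and 3, is plotted against coding length in bases; the dotted line marks 100%. Genes of the same length spread widely, from RPL34 at 41.8% and RPS12 at 47.4% to RPL11 at 125.0%.

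Upon depletion of Sam68, 1 ribosomal protein gene, the paralog RPL7L1, passed the test, and it was downregulated. At an adjusted p under 0.05 in limma, 0 of the 82 tested members were higher in si-SAM68, against 4.47% of all tested loci, and 1 was lower, against 6.23%. At an unadjusted p under 0.05, 11 members were higher and 3 lower, against 12.8% and 14.1% of all tested loci. Count-based tests on recovered reads gave 0 higher and 1 lower with edgeR (4.56% and 6.19% of all loci), and 3 higher (RPS27L, RPS7 and RPS15A) and 2 lower (RPL7L1 and RPL39L) with DESeq2 (6.67% and 8.24% of all loci). At the thresholds of the study (an unadjusted p of at most 0.05 and at least 1.5-fold), 0 members were regulated, against 7.67% of all tested loci. With the replicate number as a block in limma, 0 members were higher (3.88% of all loci) and 1 was lower (5.12%). In these bulk libraries, fewer cells and less RNA per cell cannot be told apart.

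The direction of the small differences was mostly upward. The median log2 fold change of the 82 members was 0.15, beside 0.01 over all 18849 tested loci, and 71 members had a positive and 11 a negative value (86.6% positive, beside 50.9% of all loci). Without si-CTRL replicate 1, 64 were positive and 18 negative. All 3 si-SAM68 libraries were above all 3 si-CTRL libraries for 19 members, where 16.6% of all tested loci showed the same, and all were below for 2 members, where 17.3% did. Without si-CTRL replicate 1 the median over the members was 0.06, beside 0.00 over all loci. In the same 5 libraries, 1 member was higher (RPS27L; 6.98% of all loci) and 4 were lower (RPL7L1, RPL39L, RPL17 and RPL26L1; 8.01% of all loci). Without si-CTRL replicate 2 or without si-CTRL replicate 3, RPS27L was likewise the 1 member called higher (3.58% and 2.48% of all loci).

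**Figure D3:**
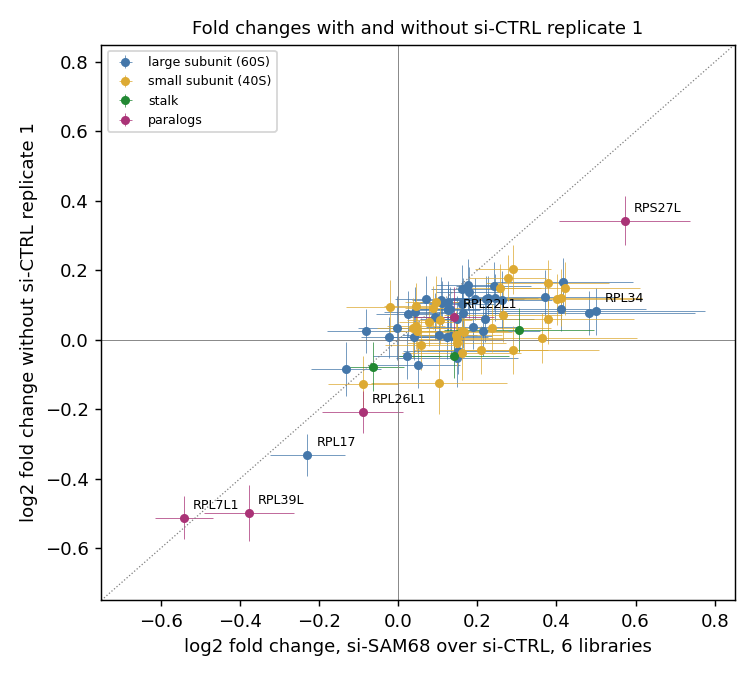
The log2 fold change (si-SAM68 over si-CTRL) of each tested ribosomal protein gene in all 6 libraries, horizontally, is set against the value without si-CTRL replicate 1, vertically; bars are standard errors and the dotted line marks equal values. RPL34, at 0.50 with all libraries, is at 0.08 without that control, whereas RPL7L1 is at −0.54 and −0.51.

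The summed normalized read count of the members was 3575430, 4299049 and 4242605 in si-CTRL and 4621909, 4234363 and 4503721 in si-SAM68 (each in the order of replicates 1 to 3). The groups overlapped, since si-SAM68 replicate 2 was below si-CTRL replicates 2 and 3. The log2 ratio of the group means was 0.14, and 0.06 without si-CTRL replicate 1. As a share of all reads, the members took 5.44%, 6.61% and 6.43% in the si-CTRL libraries and 7.01%, 5.57% and 6.78% in the si-SAM68 libraries. The low share of si-SAM68 replicate 2 came with 15.1% of its reads at the locus of the ribosomal RNA precursor RNA45S5, against 1.83% to 3.17% in the other 5 libraries. With that locus left out of every library, the shares were 5.54%, 6.79% and 6.65% in si-CTRL and 7.18%, 6.57% and 6.91% in si-SAM68. On this basis si-SAM68 replicate 2 was still below si-CTRL replicates 2 and 3.

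Large and small subunit genes did not separate from each other. The summed level of the 43 large subunit genes was 1.49, 1.40 and 1.40 times that of the 31 small subunit genes in si-CTRL and 1.42, 1.41 and 1.40 times in si-SAM68 (in order). The median log2 fold change was 0.15 for the large subunit (range −0.23 to 0.50, 38 positive and 5 negative) and 0.16 for the small subunit (range −0.09 to 0.42, 29 positive and 2 negative). Without si-CTRL replicate 1 these medians were 0.08 and 0.04. The 3 stalk proteins, which recruit translation factors to the large subunit, had log2 fold changes of −0.06 (RPLP0), 0.14 (RPLP2) and 0.31 (RPLP1), and without si-CTRL replicate 1 of −0.08, −0.05 and 0.03. Of the 77 genes of these 3 classes, 0 were higher and 0 lower in limma in the 6 libraries, against 4.47% and 6.23% of all tested loci. At an unadjusted p under 0.05, 10 were higher and 1 lower, against 12.8% and 14.1% of all tested loci. edgeR called 0 of them, against 4.56% of all loci higher and 6.19% lower. DESeq2 called 2 (RPS7 and RPS15A, higher), against 6.67% higher and 8.24% lower. Without si-CTRL replicate 1 the RPL17 locus was called lower (8.01% of all loci).

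The 5 largest positive values among the members belonged to RPS27L, RPL34, RPL31, RPS27A and RPL9. RPL34 had normalized read counts of 7805, 18846 and 18455 in si-CTRL and 19855, 18466 and 20961 in si-SAM68 (each in the order of replicates 1 to 3). The first control was the one low library, and the groups overlapped. The log2 fold change of RPL34 was 0.50 ± 0.28 (SE, adjusted p = 0.277) and 0.08 ± 0.07 without si-CTRL replicate 1. RPL31, which sits at the mouth of the exit tunnel, had 12445, 28910 and 28916 in si-CTRL and 31258, 28696 and 31617 in si-SAM68. Again the first control was low and the groups overlapped, with a log2 fold change of 0.48 ± 0.27 (SE, adjusted p = 0.279), which was 0.08 ± 0.06 without that library.

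RPS27A encodes a small subunit protein made as a fusion with ubiquitin. Its normalized read counts were 24189, 44402 and 40948 in si-CTRL and 46879, 43950 and 51160 in si-SAM68. si-SAM68 replicate 2 lay just below si-CTRL replicate 2, and the log2 fold change was 0.42 ± 0.19 (SE, adjusted p = 0.191), or 0.15 ± 0.08 without si-CTRL replicate 1. RPL9 of the large subunit had 64190, 108863 and 107586 in si-CTRL and 122414, 114517 and 127593 in si-SAM68. Here the groups did not overlap, even though the first control again lay far below the other 2. The log2 fold change of RPL9 was 0.42 ± 0.18 (SE, adjusted p = 0.164), and 0.17 ± 0.07 without si-CTRL replicate 1 (adjusted p = 0.140). Without si-CTRL replicate 2, 5 members passed the thresholds of the study (RPS27L, RPS19, RPL31, RPL34 and RPS27A; 9.70% of all loci did), and without si-CTRL replicate 3, 4 did (RPS27L, RPL31, RPL34 and RPL39; 8.02% of all loci). Without si-SAM68 replicate 2, RPS27L alone did (7.57% of all loci).

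At the other end, the smallest values among the members were those of RPL7L1, RPL39L, RPL17, RPL35 and RPS2. RPL17, a protein at the exit tunnel, was measured at a locus joined with C18orf32, so that reads of the 2 genes cannot be told apart. It had 17435, 21492 and 21575 in si-CTRL and 17573, 16241 and 17571 in si-SAM68. si-CTRL replicate 1 lay within the si-SAM68 values, whereas the other 2 controls lay above them. The log2 fold change of the RPL17 locus was −0.23 ± 0.09 (SE, adjusted p = 0.154). Without si-CTRL replicate 1 it was −0.33 ± 0.06 and passed the test (adjusted p = 0.00511).

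RPL35, whose protein also lies beside the exit tunnel, had 43889, 40791 and 38806 in si-CTRL and 40550, 33883 and 38408 in si-SAM68. The log2 fold change of RPL35 was −0.13 ± 0.09 (SE, adjusted p = 0.370), and −0.09 without si-CTRL replicate 1. RPS2, at the mRNA entry of the small subunit, had 95290, 96207 and 110207 in si-CTRL and 100453, 88680 and 94115 in si-SAM68 (log2 fold change −0.09 ± 0.09 (SE), adjusted p = 0.554). For both genes the groups overlapped and the difference was within the spread between libraries.

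Per kilobase of coding length, RPL41, RPL39 and RPS24 had the highest levels over the 6 libraries, at 535403, 369129 and 307246 normalized reads per kilobase. RPL41 encodes the shortest ribosomal protein, with a coding length of 75 bases, so that this scale, which leaves out untranslated parts of the mRNA, raises it. RPL41 had normalized read counts of 28370, 43056 and 40958 in si-CTRL and 46644, 40795 and 41109 in si-SAM68, with the first control low and the groups overlapping. The log2 fold change of RPL41 was 0.21 ± 0.14 (SE, adjusted p = 0.368), and 0.03 without si-CTRL replicate 1. RPS24 was even across libraries, with 119985, 119397 and 122651 in si-CTRL and 122685, 121746 and 129082 in si-SAM68. Its groups overlapped, si-CTRL replicate 1 did not stand apart, and the log2 fold change was 0.04 ± 0.07 (SE, adjusted p = 0.740). The log2 fold changes of RPL41 and RPS24 took the other sign after removal of a length trend.

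Of the 7 paralogs, 5 were tested, and RPL7L1 was the 1 that passed in limma. RPL7L1, located at chr6:42847354-42857633 (hg19), is a relative of RPL7 that is found in the nucleolus and belongs with factors of early large subunit assembly. It had normalized read counts of 9746, 9261 and 9081 in si-CTRL and 6162, 6424 and 6719 in si-SAM68 (each in the order of replicates 1 to 3). All 3 si-SAM68 libraries lay below all controls, and the first control did not stand apart. The mean fell from 9363 ± 344 (SD, n = 3) to 6435 ± 279 (SD, n = 3), a log2 fold change of −0.54 ± 0.07 (SE, limma adjusted p = 0.00225), which is 1.46-fold lower and just short of the 1.5-fold threshold. Without si-CTRL replicate 1 the value was −0.51 (adjusted p = 0.000552).

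The parent gene RPL7, which encodes a structural protein of the large subunit, did not share this decrease. RPL7 had 47145, 64844 and 64744 in si-CTRL and 67851, 64307 and 67170 in si-SAM68, with overlapping groups. The log2 fold change of RPL7 was 0.19 ± 0.12 (SE, adjusted p = 0.341), and 0.04 without si-CTRL replicate 1. RPL7L1 therefore amounted to 20.7%, 14.3% and 14.0% of the RPL7 read count in si-CTRL and 9.08%, 9.99% and 10.0% in si-SAM68. These ratios did not overlap between groups, with or without the first control, whose high ratio came with its low RPL7 value.

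RPL39L, at chr3:186838741-186857263 (hg19), is a paralog of the exit tunnel protein RPL39 that is best known from male germ cells. Its normalized read counts were 1807, 2335 and 2324 in si-CTRL and 1656, 1521 and 1777 in si-SAM68. The highest si-SAM68 library lay slightly below the lowest control, which was again si-CTRL replicate 1. The log2 fold change was −0.38 ± 0.11 (SE), short of the threshold in limma (adjusted p = 0.0644). It was −0.50 ± 0.08 and passed the test without si-CTRL replicate 1 (adjusted p = 0.00256). RPL39 itself had 30458, 57695 and 61113 in si-CTRL and 64372, 60603 and 64619 in si-SAM68, overlapping between groups. The log2 fold change of RPL39 was 0.41 ± 0.22 (SE, adjusted p = 0.254), and 0.09 without si-CTRL replicate 1. RPL39L was 5.93%, 4.05% and 3.80% of RPL39 in si-CTRL and 2.57%, 2.51% and 2.75% in si-SAM68, lower in all 3 si-SAM68 libraries.

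RPS27L, at chr15:63445539-63449741 (hg19), is a paralog of the small subunit protein RPS27. It went in the opposite direction, with 3571, 5785 and 5712 in si-CTRL and 7524, 6691 and 7704 in si-SAM68. All 3 si-SAM68 libraries were above all controls, and si-CTRL replicate 1 was lower than the other 2. The log2 fold change was 0.57 ± 0.17 (SE), a 1.49-fold difference that narrowly missed the fold-change threshold and the threshold of the test (adjusted p = 0.0544). RPS27L passed the adjusted threshold without si-CTRL replicate 1 (0.34 ± 0.07, adjusted p = 0.00952), without si-CTRL replicate 2 (0.69, adjusted p = 0.0339) and without si-CTRL replicate 3 (0.68, adjusted p = 0.0499). It did not pass without si-SAM68 replicate 1 (adjusted p = 0.155), 2 (0.0930) or 3 (0.199). RPS27 had 30537, 38508 and 38172 in si-CTRL and 42987, 39426 and 45330 in si-SAM68. The log2 fold change of RPS27 was 0.26 ± 0.10 (SE, adjusted p = 0.141), and 0.15 without si-CTRL replicate 1. Its groups did not overlap either, and the first control was its lowest library. RPS27L was 11.7%, 15% and 15% of RPS27 in si-CTRL and 17.5%, 17.0% and 17.0% in si-SAM68.

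RPL26L1, which differs little from RPL26 of the large subunit, had 6064, 7608 and 7939 in si-CTRL and 6875, 6561 and 6741 in si-SAM68. Its first control lay below and its other 2 controls above the si-SAM68 values, so the log2 fold change of −0.09 ± 0.10 (SE, adjusted p = 0.615) became −0.21 ± 0.06 without si-CTRL replicate 1 (adjusted p = 0.0392). The parent RPL26 had 65640, 67150 and 69172 in si-CTRL and 72930, 71518 and 75907 in si-SAM68, without overlap but with a log2 fold change of 0.13 ± 0.07 (SE, adjusted p = 0.291). RPL26L1 was 9.24%, 11.3% and 11.5% of RPL26 in si-CTRL and 9.43%, 9.17% and 8.88% in si-SAM68, ranges that overlapped through the first control.

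RPL22L1, the paralog of the RNA-binding large subunit protein RPL22, showed no such shift. RPL22L1 had 1770, 2007 and 2132 in si-CTRL and 2145, 1985 and 2386 in si-SAM68, and the groups overlapped. The log2 fold change of RPL22L1 was 0.14 ± 0.10 (SE, adjusted p = 0.404), and 0.07 without si-CTRL replicate 1. RPL22 had 60941, 59293 and 61376 in si-CTRL and 64673, 61966 and 69371 in si-SAM68 (log2 fold change 0.11 ± 0.07 (SE), adjusted p = 0.384), without overlap. RPL22L1 was 2.90% to 3.47% of RPL22 in si-CTRL and 3.20% to 3.44% in si-SAM68. The 2 remaining paralogs were below the minimum for testing. RPL10L, known from testis, was listed at 0 in every library, and RPL3L, known from striated muscle, was at 0, 3.87 and 1.90 in si-CTRL and 4.03, 0 and 0 in si-SAM68. Exact permutation tests of the 5 ratios can give no less than p = 0.1 (two-sided), the value reached by RPL7L1, RPL39L and RPS27L, against p = 0.2 for RPL26L1 and p = 0.9 for RPL22L1.

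**Figure D4:**
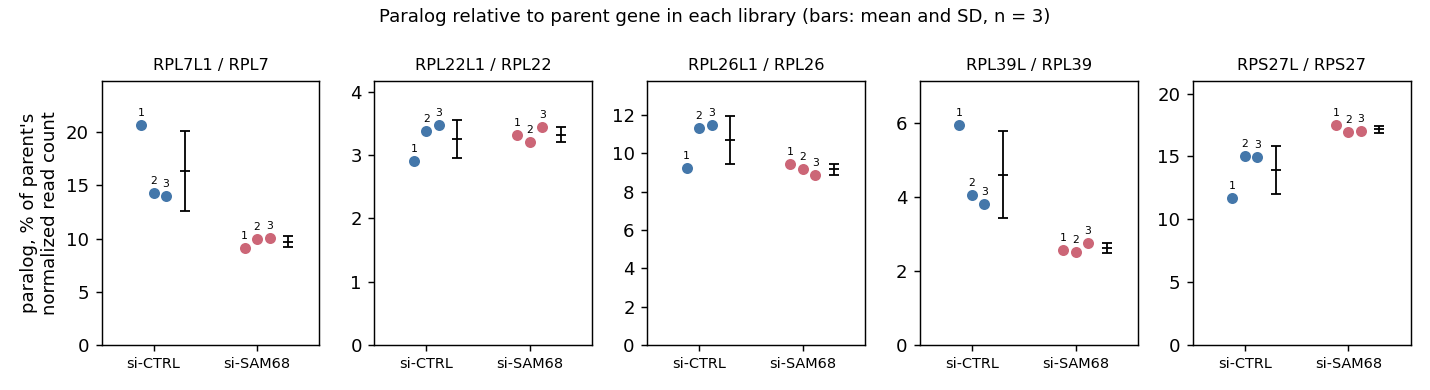
The normalized read count of each paralog is given as a percent of that of its parent gene in each library (numbers above the points are replicates), with the mean and SD of 3 libraries beside them; each axis starts at 0. RPL7L1 and RPL39L are lower and RPS27L is higher relative to the parent in all 3 si-SAM68 libraries, whereas RPL22L1 overlaps between groups and RPL26L1 overlaps through si-CTRL replicate 1.

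Of the start sites printed above, those of RPL7L1 and RPS27L, which stood at opposite ends of the fold changes, and of RPL26L1, which was at −0.09, had no tract at the annotated first base, and that of RPL22L1, whose ratio to its parent overlapped between groups, had one. RPS12 had 19672, 42585 and 40359 in si-CTRL and 42133, 38512 and 44326 in si-SAM68, the first control being low and the groups overlapping. A match is a description of these letters, and whether the tract has a part in these differences was not tested.

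Of the ribosomal components outside the naming rule, FAU and GNB2L1 gave values like those of the members. FAU encodes a ribosomal protein fused to a ubiquitin-like protein, and GNB2L1 encodes RACK1, a scaffold on the small subunit. Their log2 fold changes were 0.24 (FAU, adjusted p = 0.439) and 0.03 (GNB2L1, adjusted p = 0.839), and both groups of libraries overlapped. Without si-CTRL replicate 1 the values were −0.03 (FAU) and −0.02 (GNB2L1). FAU, like many short members, was low in si-CTRL replicate 1, at 56.9% of the other controls. Of 21 other TOP mRNAs (translation factors, PABPC1, TPT1 and similar genes, with FAU and GNB2L1 among them), 0 were higher and 0 were lower at an adjusted p under 0.05 in limma, against 4.47% and 6.23% of all tested loci, shares at which a list of this length would hold few calls. At an unadjusted p under 0.05, 1 was higher and 0 were lower (12.8% and 14.1% of all loci), and edgeR and DESeq2 also called 0 in either direction. Their median log2 fold change was 0.07, both with all libraries and without si-CTRL replicate 1.

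Ribosome biogenesis factors make and process ribosomal RNA and assemble the subunits. Of 93 tested factors, 0 were higher, against 4.47% of all tested loci, and 3 were lower (GTPBP4, UTP3 and NOP16), against 6.23%. Their median log2 fold change was −0.03, and −0.02 without si-CTRL replicate 1. Whether they differ as a group from the ribosomal proteins or from all loci was not tested. At an unadjusted p under 0.05, 3 were higher and 13 lower, against 12.8% and 14.1% of all loci, and POLR1A, listed near 0, was not tested. All si-SAM68 libraries lay below all controls for 24 factors and above for 9, where 17.3% and 16.6% of all loci did so.

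GTPBP4, a GTPase of large subunit maturation, had normalized read counts of 9113, 8333 and 8714 in si-CTRL and 6188, 6624 and 6947 in si-SAM68. The groups were separate, with a log2 fold change of −0.41 ± 0.08 (SE, adjusted p = 0.0111). Without si-SAM68 replicate 2 it missed the threshold (adjusted p = 0.0524). UTP3, a small subunit processing factor, had 4683, 5120 and 5253 in si-CTRL and 4092, 4033 and 4129 in si-SAM68 (−0.30 ± 0.08 (SE), adjusted p = 0.0353). NOP16, a nucleolar protein of large subunit assembly, had 2803, 2737 and 2650 in si-CTRL and 2244, 2302 and 2286 in si-SAM68 (−0.26 ± 0.07 (SE), adjusted p = 0.0494). Both genes were lower in every si-SAM68 library. With the replicate number as a block, GTPBP4 alone of the 3 passed (adjusted p = 0.0268), while UTP3 (0.0534) and NOP16 (0.0753) did not. UTP3 and NOP16 passed without si-CTRL replicate 1 (adjusted p = 0.00388 and 0.0316) and were lost without any 1 of the other 5 libraries, and without si-CTRL replicate 1, 7 factors were lower (8.01% of all loci).

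Among 14 genes of mTORC1 and TOP control, 1 was higher and 2 were lower, against 4.47% and 6.23% of all tested loci. For 11 of the 14 the highest value was that of si-CTRL replicate 1, as it was for 5179 of all 18849 tested loci. The median log2 fold change of the 14 was −0.16 with and −0.05 without that library. The same 3 genes were called without it. At an unadjusted p under 0.05, 1 was higher and 5 were lower, against 12.8% and 14.1% of all loci. RPTOR encodes Raptor, the subunit through which mTORC1 binds its substrates. It had 4267, 4085 and 3969 in si-CTRL and 2063, 2079 and 1824 in si-SAM68. The controls were about level and every si-SAM68 library was far below them, a 2.07-fold decrease (log2 fold change −1.05 ± 0.08 (SE), adjusted p = 0.000186). EIF4EBP1 and EIF4EBP2 encode related proteins that hold the cap-binding factor eIF4E until mTORC1 phosphorylates them. EIF4EBP1 had 7398, 6175 and 7076 in si-CTRL and 5570, 5195 and 5077 in si-SAM68 (−0.38 ± 0.09 (SE), adjusted p = 0.0238).

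EIF4EBP2 had 24354, 23065 and 22562 in si-CTRL and 31811, 33188 and 33964 in si-SAM68 (0.50 ± 0.07 (SE), adjusted p = 0.00297). The groups of both genes were separate, with EIF4EBP1 lower and EIF4EBP2 higher. EIF4EBP1 lost its call without si-CTRL replicate 3 (adjusted p = 0.0764) and without si-SAM68 replicate 1 (0.0536), 2 (0.0982) or 3 (0.109). LARP1, which binds the TOP tract, had a log2 fold change of −0.18 (adjusted p = 0.475) and overlapping groups. Its level in si-CTRL replicate 1 was 151.8% of the other controls, and without that library the value was 0.02. DEPTOR, an mTOR-binding inhibitor, had 161, 108 and 97.9 in si-CTRL and 78.6, 89.2 and 68.1 in si-SAM68, lower in every si-SAM68 library, and passed the thresholds of the study at 1.52-fold but not the adjusted one (adjusted p = 0.106). Its log2 fold change was −0.60, and −0.39 without si-CTRL replicate 1, its highest library. AKT1, a kinase upstream of mTORC1, was at −0.29 (adjusted p = 0.0659), and with the replicate block its adjusted p was 0.0495.

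CDKN1A, MDM2 and MDM4 were measured because free ribosomal proteins act on MDM2. CDKN1A, the cell cycle inhibitor p21, had 6000, 5526 and 5967 in si-CTRL and 3472, 3554 and 3599 in si-SAM68. Every si-SAM68 library was below every control, a 1.65-fold decrease (log2 fold change −0.72 ± 0.07 (SE), adjusted p = 0.000686). MDM2 (0.27, adjusted p = 0.118) and MDM4 (0.29, adjusted p = 0.164) did not pass the test in the 6 libraries. MDM4 was at 0.40 and passed without si-CTRL replicate 1 (adjusted p = 0.0259). CDKN1A thus passed the test in the 6 libraries, and MDM2 and MDM4 did not.

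**Figure D5:**
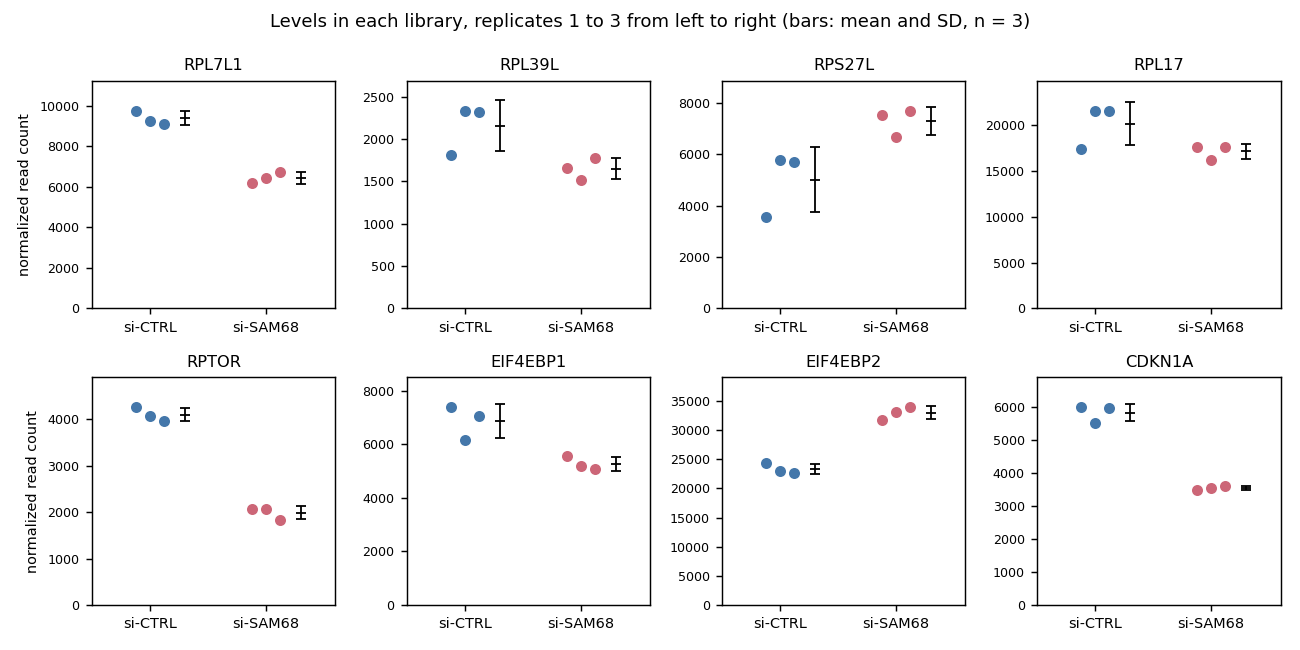
Normalized read counts in each library, with replicates 1 to 3 from left to right in each group and the mean and SD of 3 libraries beside them; each axis starts at 0. RPL7L1, RPL39L, RPTOR, EIF4EBP1 and CDKN1A are lower and RPS27L and EIF4EBP2 higher in every si-SAM68 library than in every control, while RPL17 overlaps through si-CTRL replicate 1.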

How the data were processed

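The authors aligned single-end reads of poly(A) RNA to hg19 (their processing notes name STAR 2.4.0, SAMtools, Picard and FastQC), counted them per FAST DB locus and deposited counts divided by DESeq2 size factors, a normalized signal per library. The counting program and its use of strand are not given in the sources used here, so overlapping genes, and paralogs or pseudogenes of near-identical sequence, may share reads. The values were whole multiples of 1 step per library in 100% of cases (within 0.01), which gave back the reads; 0 value columns were left unmapped. Depth was 52625492 (si-CTRL replicate 1) to 82568487 reads (si-SAM68 replicate 2).

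Here, limma 3.58.1 (R 4.3.3, trend in eBayes) was fitted to log2(normalized read count + 1). The fit covered 18849 loci (those averaging 10 or more), with Benjamini-Hochberg adjustment over all of them. Because 1 was added to each value, fold changes of low genes are understated. The scripts were tested on simulated data. edgeR 4.0.16 on the recovered reads called 859 loci higher and 1167 lower, and DESeq2 1.42.0 called 1258 and 1553. The members and lists were chosen with earlier results of these data known. Genes named are KHDRBS1, members past the threshold, the 5 largest and 5 smallest fold changes, the 3 most abundant per kilobase, the paralogs with parents, members below the minimum, and up to 3 called genes per direction and list; others (such as RPS12, RPL11, RPS7, RPS15A and DEPTOR) were chosen after their values were seen. Some single genes are not reported here. Coding lengths came from GENCODE v29. Replicate numbers were taken from the sample titles, which state no pairing. Deviations from the group means correlated at 0.11, 0.23 and 0.13 between same-numbered libraries. Between differently numbered ones the correlations ran from −0.13 to 0.01. Whether same-numbered libraries share a batch was not tested. Alternatives were other pseudocounts, filters, scalings and tests, a replicate block, length trends and leaving out each library.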

Additional observations from a re-analysis of the deposited data

How the results depend on the processing

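RPL7L1 was lower, with an adjusted p under 0.05, under all 22 alternatives (log2 fold change −0.57 to −0.51, adjusted p 1.72e-08 to 0.0268), as was KHDRBS1 (−4.66 to −4.56). The members' median stayed positive, between 0.06 and 0.21, and the log2 ratio of their summed level between 0.06 and 0.19, both lowest without si-CTRL replicate 1. The cause of the differences below was not tested. The number of members called higher was 0, and 1 with a minimum mean of 50 (6.30% of all loci), 3 with DESeq2 (6.67%), 1 with a length and GC trend removed together with the replicate block (5.02%), 2 with a coding length trend removed (chosen after seeing the data; 7.63%) and 1 with that trend and the replicate block (6.78%). The number called lower was 1, and 2 with DESeq2 (8.24% of all loci), 3 with the length and GC trend removed, without (9.36%) or with (7.33%) the replicate block, 3 with the coding length trend removed (10.1%) and 2 with that trend and the block (8.68%). Leaving out 1 library gave 0 to 1 higher (1.19% to 6.98% of all loci), 1 to 4 lower (2.13% to 8.01%) and 0 to 5 past the study thresholds. Of the biogenesis factors, 3 were lower (6.23% of all loci). The count was 2 with a pseudocount of 0.1 (6.19% of all loci), TMM scaling (6.17%) or a robust trend (6.31%). It was 4 with DESeq2 (8.24%) or with the length and GC trend removed and the block (7.33%). Without a filter it was 1 (2.72%), and without an eBayes trend 0 (2.92%). The replicate block gave 1 (5.12% in limma, 5.18% in edgeR), and removal of the length and GC trend 5 (9.36%). With 1 library left out it was 0 to 7 (2.13% to 8.01%). In the other direction, 1 was higher with the coding length trend removed and the block (6.78%). RPS24 reversed to −0.0336 (length and GC trend, with and without the replicate block) and −0.0233 (coding length trend, likewise), and RPL41 to −0.0368 (coding length trend, likewise). The replicate block by itself changed no call of a member, and no call in the lists other than those given with UTP3, NOP16 and AKT1. Of the other rounds for single named genes, 518 kept their side of the threshold, 18 newly passed it and 30 no longer did. At this depth every tested member averaged at least 1903 normalized reads, so counting error is small and the spread between libraries sets the limit.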

Other observations

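Loci named as ribosomal protein pseudogenes lie outside the rule and were looked at after the values of the members were seen. Of 29 such loci, 17 were tested, 1 was higher and 1 was lower, against 4.47% and 6.23% of all tested loci. RPS18P9 had normalized read counts of 187, 238 and 192 in si-CTRL and 316, 316 and 356 in si-SAM68, above every control (log2 fold change 0.68, limma adjusted p = 0.0133), while RPS18 had 72068, 111392 and 114170 in si-CTRL and 132035, 121493 and 125310 in si-SAM68 (0.38, adjusted p = 0.153). RPSAP52 had 20, 21.3 and 30.4 in si-CTRL and 3.02, 3.68 and 10.1 in si-SAM68, below every control (−2.05, adjusted p = 0.0249), while RPSA was at 0.15 (adjusted p = 0.444). Without si-CTRL replicate 1 the parents were at 0.16 (RPS18) and 0.003 (RPSA). The pseudogenes were then at 0.62 (RPS18P9) and −2.16 (RPSAP52). How reads were divided between a pseudogene and its parent was not examined.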
